A study of Mus musculus with 3 samples.

Results

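The genes described here are p53 itself, the p53 targets Mdm2, Cdkn1a and Ccng1, the inhibitors of cyclin-dependent kinases (CDKs) Cdkn1a, Cdkn1b, Cdkn1c, Cdkn2a, Cdkn2b and Cdkn2c, and the cyclin D1 gene Ccnd1, which is the partner of a kinase that these inhibitors act on. They were chosen by name, and a probe set was used where the platform table pairs it with 1 of these genes alone. Of the 10 genes 9 had such a probe set, 16 probe sets in all, out of 17097 genes on the array. Trp53 had none and its level was not analysed here. Expression was measured on 3 Affymetrix arrays of mesenchymal progenitors, stromal cells from adult mouse bone marrow, which the labels call PaS+. The cells came from C56Bl/6 mice 8 weeks old, were sorted, grown for 7 days in MesenCult medium at 1% oxygen, and transduced overnight with a lentivirus carrying a short hairpin RNA (shRNA). RNA was collected 4 days later from cells given a control shRNA (shCTR), an shRNA against HIF-1a (shHIF-1a) or an shRNA against HIF-2a (shHIF-2a), with 1 array for each. All 3 arrays therefore share the low oxygen and the lentiviral transduction, and no array of cells in room air or without virus was analysed here. The labels do not say whether the 3 arrays stand for separate animals or cultures. With 1 array in each group no difference could be tested. Values are given as RMA intensities on a linear scale, and differences on the log2 scale, where 1 is 2-fold.

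p53 is a transcription factor that is kept scarce by the ubiquitin ligase MDM2 and becomes stable after DNA damage and other stress. It then switches on genes that halt the cell cycle, repair DNA or kill the cell, and among them is Mdm2, which closes a negative feedback loop. CDK inhibitors fall into the Cip/Kip family (Cdkn1a, Cdkn1b and Cdkn1c), which binds cyclin-CDK complexes, and the INK4 family (Cdkn2a, Cdkn2b and Cdkn2c), which binds CDK4 and CDK6 and keeps cyclin D away from them. Cyclin D1 with CDK4 or CDK6 starts the phosphorylation of the retinoblastoma protein and so the entry into S phase.

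The promoters of Cdkn1a, Ccng1 and Mdm2 are shown first, because they hold the motif through which p53 recognises DNA. The 250 bases before an annotated start are printed 5′ to 3′ from RefSeq, build GRCm38.p6, with matches to the p53 motif in capitals. For Cdkn1a the bases are chr17:29090729-29090978 on the plus strand and precede the more upstream of the listed starts. For Ccng1 they are chr11:40755287-40755536 and for Mdm2 chr10:117710759-117711008, both on the minus strand.
Cdkn1a: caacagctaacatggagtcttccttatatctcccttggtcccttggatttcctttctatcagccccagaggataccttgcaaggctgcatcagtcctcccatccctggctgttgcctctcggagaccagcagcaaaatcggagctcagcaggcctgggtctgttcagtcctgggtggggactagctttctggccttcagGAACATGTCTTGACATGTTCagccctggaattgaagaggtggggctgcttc
Ccng1: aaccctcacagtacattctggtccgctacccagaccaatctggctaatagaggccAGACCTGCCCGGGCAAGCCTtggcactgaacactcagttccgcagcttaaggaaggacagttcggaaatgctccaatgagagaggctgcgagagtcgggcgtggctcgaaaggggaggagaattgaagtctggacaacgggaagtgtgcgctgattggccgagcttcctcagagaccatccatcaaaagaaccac
Mdm2: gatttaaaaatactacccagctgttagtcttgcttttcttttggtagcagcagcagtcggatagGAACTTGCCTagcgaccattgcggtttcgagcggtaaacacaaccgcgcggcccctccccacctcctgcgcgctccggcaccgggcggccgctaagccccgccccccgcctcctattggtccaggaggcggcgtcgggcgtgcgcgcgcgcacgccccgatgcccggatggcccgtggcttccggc
In Cdkn1a and Ccng1 the capitals mark a pair of abutting copies of the p53 decamer, the unit that a p53 dimer contacts, with 1 mismatch in each pair. The pairs begin 51 and 195 bases before the start. Cdkn1a has a further exact decamer, in lower case, that begins 73 bases before the start. Mdm2 has a single exact decamer, GAACTTGCCT, which begins 186 bases before the start. The p53-responsive promoter for which Mdm2 is known lies in its first intron and is outside this window.

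Windows of 250 bases before and 50 after a start were listed for 8 of the 10 genes, 11 windows in all. Abutting decamers with at most 1 mismatch were found in 29 of 32851 windows of all genes, or 0.0883%, and in 2 of the 11 windows here. An exact decamer was in 8.36% of all windows and in 4 of the 11, which belong to Trp53, Mdm2, Cdkn1a and Ccng1. An exact decamer is part of each marked pair. The core of the HIF motif, ACGTG or GCGTG, was in 43.8% of all windows and in 9 of the 11, with at least 1 match in each of the 8 genes. A stretch CACGTG holds ACGTG on both strands and is counted on each. The E2F motif, TTTGGCGC or TTTCGCGC, was in 0.813% of all windows and in none of these 11. Both strands were searched for every motif, and a match describes these letters and is not a measured binding site.

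**Figure D1:**
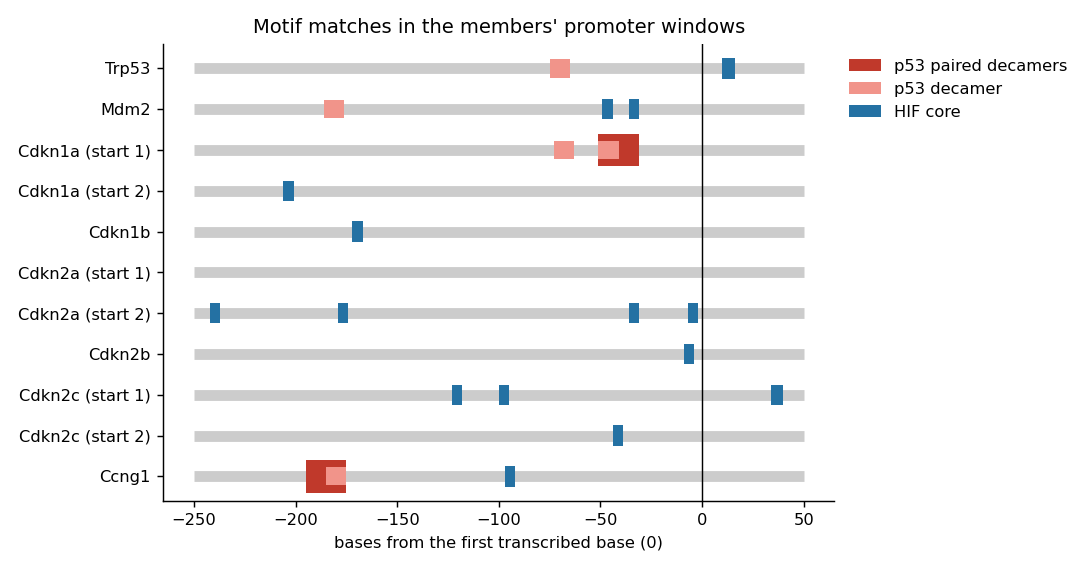
Positions of motif matches in 11 promoter windows of 8 genes, with bases from the first transcribed base on the horizontal axis. Dark red bars mark abutting p53 decamers with at most 1 mismatch, light red bars exact decamers and blue bars the HIF core. Dark red appears in Cdkn1a and Ccng1 alone, whereas blue appears in 9 windows.

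Some facts of the arrays bear on all values that follow. Hif1a read 352.1 with the control shRNA and 332.4 on both other arrays, so its probe set did not separate the hairpins, and the arrays are called HIF-1a-labelled and HIF-2a-labelled below. Epas1, which encodes HIF-2a, read 5.09, 9.44 and 3.21 on the control, HIF-1a-labelled and HIF-2a-labelled arrays, where the brightest of 23 nonspecific control probe sets read 3.47. Of 11 mesenchymal progenitor markers with a probe set 10 passed 3.47 on every array, with a summed intensity over the list of 1556, 1736 and 1452 in the order control, HIF-1a-labelled and HIF-2a-labelled. With values under 3.47 raised to it, 4 of the 11 markers were above control on the HIF-2a-labelled array, 5 below and 2 equal. The median difference was 0. Among them the collagen gene Col1a1 read 130.4, 126.9 and 48.1 and the surface marker gene Thy1 13.1, 12.4 and 6.72, both lowest on that array. The surface marker gene Cd44 read 500.5, 538.9 and 576.5 and was highest there. Of 10 haematopoietic markers Cd14 alone passed it on the control and HIF-1a-labelled arrays, and Cd68 joined it on the HIF-2a-labelled array, while the summed intensity of the 10 was 105, 99.9 and 110 in array order. Of 10 endothelial markers Egfl7 alone passed it. Of 7 smooth muscle markers Acta2 and Tpm2 passed it, with a summed intensity over the list of 697, 732 and 521. Spiked hybridisation controls of bacterial and phage origin, 9 probe sets, had a median difference from control of 0.14 on the HIF-1a-labelled array and −0.53 on the HIF-2a-labelled array. In these bulk samples fewer cells of a type and less of a transcript in each cell cannot be told apart. The part of these differences in the results below was not tested.

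A gene was called measured when its brightest probe set, by the mean of the 3 arrays, reached 64 on at least 1 array. This held for 2738 genes and for 6 of the genes described here, namely Mdm2, Cdkn1a, Cdkn2a, Cdkn2b, Ccng1 and Ccnd1. No measured gene of the 6 differed 2-fold on the probe set that represents it, in any of the 3 comparisons. Among all measured genes 1.06% differed 2-fold between the HIF-1a-labelled and control arrays, 2.52% between the HIF-2a-labelled and control arrays and 1.68% between the HIF-2a-labelled and HIF-1a-labelled arrays. The median differences of the 6 genes in that order were −0.03, −0.04 and 0.01, beside 0.01, 0.02 and 0.00 for all measured genes. The differences were smaller than 2-fold, and a second yardstick was therefore used, the pooled SD of the difference between measured probe sets of 1 gene. It was 0.12, 0.21 and 0.14 in the same order over 649 genes, and it is a spread within an array pair that says nothing of the spread between cultures.

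On the HIF-1a-labelled array 1 of the 6 genes differed from control by more than that SD, Cdkn2b, which was higher. Of all measured genes 33.1% did, 26.2% upward. The Cdkn2b difference of 0.13 was just past the SD of 0.12. It came to 0.116 with 32 added, 0.115 after cyclic loess and 0.07 after centring, all under the SD. No gene of the 6 is therefore described as different on that array. On the HIF-2a-labelled array 4 of 6 did, where 35.1% of all measured genes did. Mdm2 and Ccnd1 were higher there, as 23% of all measured genes were, and Cdkn2a and Cdkn2b were lower, as 12.1% were. The same 4 genes were past the SD between the HIF-2a-labelled and HIF-1a-labelled arrays, in the same directions, where 40% of all measured genes were, 22.4% higher and 17.6% lower. These 2 comparisons share the HIF-2a-labelled array.

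**Figure D2:**
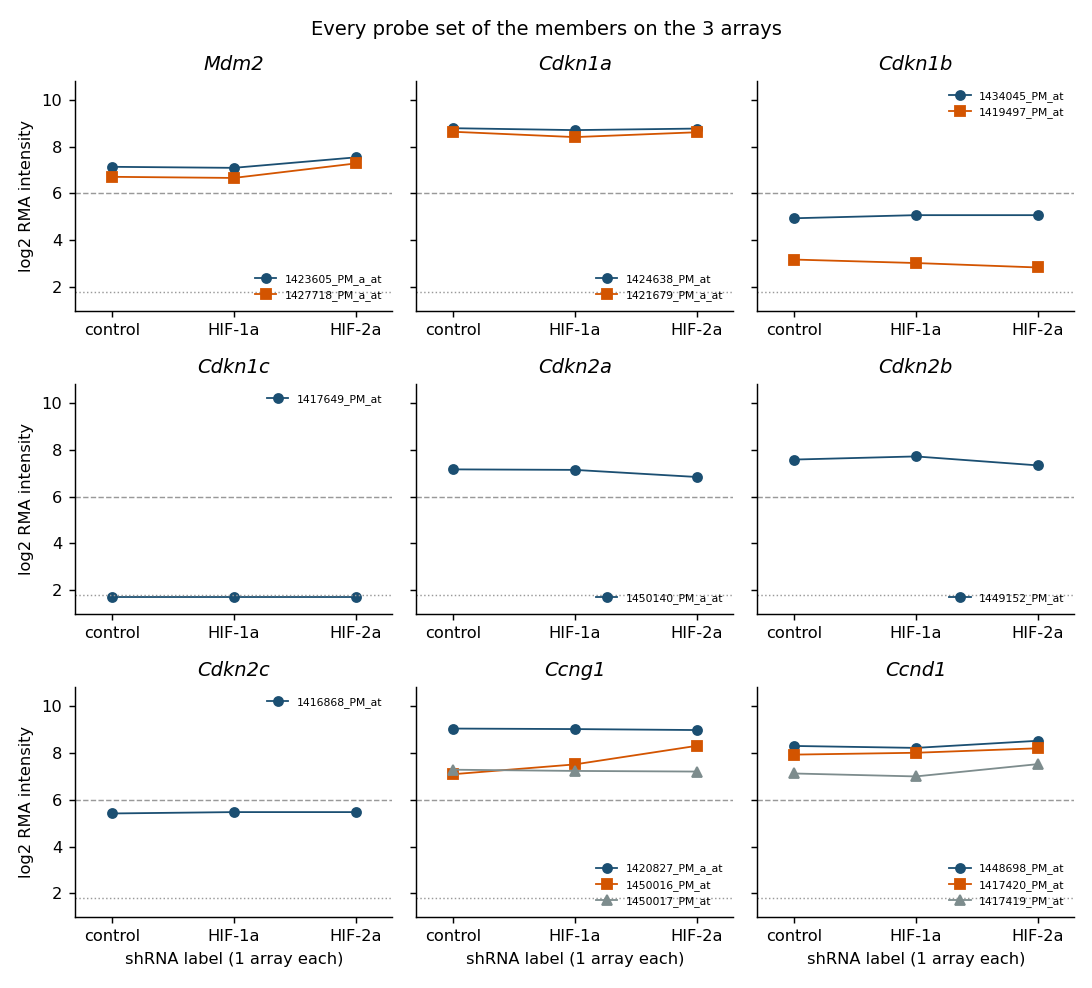
Log2 RMA intensity of all 16 probe sets on the control, HIF-1a-labelled and HIF-2a-labelled arrays, with 1 array at each point and 1 panel for each gene. The dashed line is the minimum of 64 and the dotted line the nonspecific level of 3.47. Both Mdm2 probe sets and all 3 Ccnd1 probe sets end highest on the HIF-2a-labelled array, Cdkn2a and Cdkn2b end lowest there, and 1 of 3 Ccng1 probe sets climbs while the other two stay level.

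Mdm2 (Entrez gene 17246) encodes the ubiquitin ligase that marks p53 for destruction and is itself a p53 target. Its brighter probe set read 140.9 on the control array, 136.6 on the HIF-1a-labelled array and 186.3 on the HIF-2a-labelled array. The other probe set read 104.8, 101.3 and 155.7. Both were level between the control and HIF-1a-labelled arrays, with differences of −0.04 and −0.05, and high on the HIF-2a-labelled array. The HIF-2a-labelled value was 1.32-fold the control value on the first probe set and 1.49-fold on the other, and 1.36-fold and 1.54-fold the HIF-1a-labelled value. Of all measured genes 9.97% had a difference from control at or above the 0.40 of Mdm2.

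Cdkn1a (Entrez gene 12575) encodes p21, the CDK inhibitor through which p53 halts the cell cycle. It read 441.6, 417.3 and 436.8 on its brighter probe set and 397.7, 339.4 and 391.7 on the other, in the order control, HIF-1a-labelled and HIF-2a-labelled. The HIF-1a-labelled value was the lowest on both, by −0.08 and −0.23 against control. The HIF-2a-labelled value was within 0.02 of control on the log2 scale on each probe set. Cdkn1a therefore did not share the higher value of Mdm2 on the HIF-2a-labelled array.

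Ccng1 (Entrez gene 12450) encodes cyclin G1, a p53 target that recruits a phosphatase to MDM2, and its 3 probe sets did not give 1 answer. The brightest, 1420827_PM_a_at, read 524.6, 516.7 and 502.0, and 1450017_PM_at read 155.3, 149.8 and 147.0. The third, 1450016_PM_at, read 135.8 on the control array, 181.6 on the HIF-1a-labelled array and 314.8 on the HIF-2a-labelled array. The first pair differed from control by −0.06 and −0.08 on the HIF-2a-labelled array, whereas the third was 2.32-fold higher there and 1.34-fold higher on the HIF-1a-labelled array. The platform table cites the same accession for all 3, and which stretch of the transcript each reads was not analysed here. The level of Ccng1 thus depended on the probe set, and no direction is given for it.

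Cdkn1b (Entrez gene 12576) encodes p27, which holds resting cells out of the cycle. It stayed under the minimum of 64. Its brighter probe set read 30.7 on the control array and 33.7 on both others, and the dimmer one 9.06, 8.17 and 7.17, so the probe sets pointed opposite ways. Cdkn1c (Entrez gene 12577), an imprinted gene that encodes p57, read 3.29 on all 3 arrays, under the nonspecific level of 3.47.

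Cdkn2a (Entrez gene 12578) encodes p16 and, from another first exon, the ARF protein, which binds MDM2 and frees p53. Its listed starts lie at bases 89294619 and 89282192 of chromosome 4. The 1 probe set carries the suffix _a_at, which Affymetrix gives to sets shared by transcripts of a gene, so p16 and ARF cannot be told apart here. It read 143.1 on the control array, 141.0 on the HIF-1a-labelled array and 114.2 on the HIF-2a-labelled array. The HIF-2a-labelled value was the low one, with a difference of −0.32 from control, and 7.27% of all measured genes lay at or below it.

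Cdkn2b (Entrez gene 12579), a neighbour of Cdkn2a on chromosome 4, encodes p15, known as a gene that TGF-β induces. It read 191.3, 209.9 and 161.0 in array order. It was highest on the HIF-1a-labelled array and lowest on the HIF-2a-labelled array, with differences from control of 0.13 and −0.25. Against the HIF-1a-labelled array the HIF-2a-labelled value differed by −0.38, and 7.34% of all measured genes lay at or below that. Cdkn2c (Entrez gene 12580), which encodes p18, stayed under the minimum, at 42.5 with the control shRNA and 44.3 on both other arrays.

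Ccnd1 (Entrez gene 12443) is the cyclin gene that growth factors induce early in G1. Its brightest probe set read 313.6 on the control array, 296.1 on the HIF-1a-labelled array and 365.4 on the HIF-2a-labelled array. The second read 242.6, 256.4 and 292.7, and the third 138.9, 127.3 and 183.1. All 3 probe sets were highest on the HIF-2a-labelled array, with differences from control of 0.22, 0.27 and 0.40. On the HIF-1a-labelled array they differed by −0.08, 0.08 and −0.13 and so had no common direction. Of all measured genes 21.9% were at or above the 0.22 of the brightest probe set. That value is close to the SD of 0.21, and it came to 0.16 when each array was centred on the median of the measured genes.

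**Figure D3:**
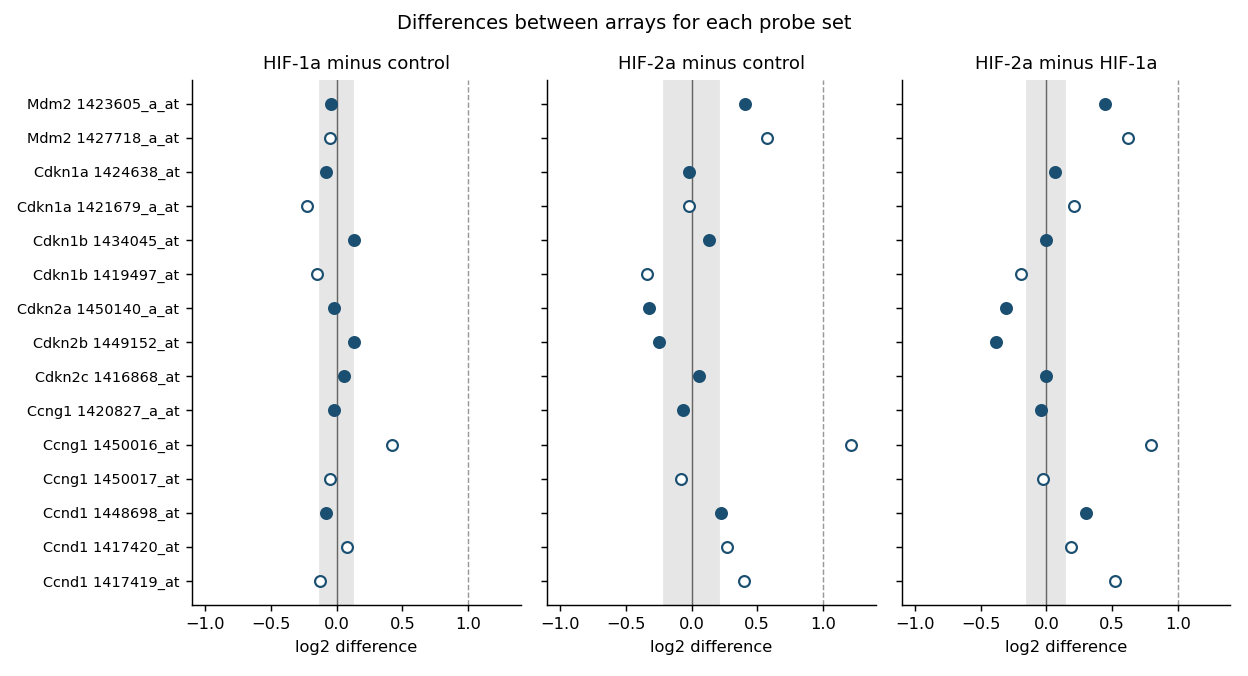
Log2 difference between arrays for 15 probe sets, leaving out Cdkn1c, with filled points for the probe set that represents a gene and open points for its others. The grey band is 1 pooled probe-set SD (0.12, 0.21 and 0.14 from left to right) and the dashed line is 2-fold. Mdm2 and Ccnd1 lie right of the band and Cdkn2a and Cdkn2b left of it in the middle and right panels, and 1 Ccng1 probe set is past 2-fold in the middle panel.

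Other p53 targets were taken from a list of 34 genes, of which 32 had a probe set and 13 were measured. None of the 13 differed 2-fold in any comparison, and their medians were 0.02 in each of the 3 comparisons. On the HIF-2a-labelled array 4 of the 13 were higher and 2 lower than control by more than the probe-set SD, beside 23% and 12.1% of all measured genes. With so few genes these counts are near the background, and the values below are a description. Aen, a p53-induced nuclease of apoptosis, read 66.0 on the control, 76.6 on the HIF-1a-labelled and 102.0 on the HIF-2a-labelled array, a difference of 0.63 on the last. Polk, a DNA polymerase that copies past damage, differed by 0.42 and read 55.2, 60.4 and 73.9 in array order. It reached the minimum on the HIF-2a-labelled array alone. Polk thus counts as measured, and among the 4 higher genes, only through its high value there. Trp53inp1, a cofactor of p53 in stress, and Plk2, a polo-like kinase that p53 induces, each differed by 0.27. Btg2, an antiproliferative gene, read 127.1, 133.6 and 92.7, a difference of −0.46, with −0.18 on its other probe set, and Dcxr, a xylulose reductase, differed by −0.24. Gadd45a and Phlda3 each differed by 0.02 on that array, and Ei24 read 108.2 on every array. On the HIF-1a-labelled array 3 of the 13 were higher than control by more than the SD, beside 26.2% of all measured genes. They were Aen at 0.22, Dcxr at 0.16 and Polk at 0.13, the last just past the SD of 0.12. Of the 13 targets 0 were below control on that array and 6 were equal to it, among them Trp53inp1, Gadd45a and Phlda3.

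Among all 32 targets, most of them dim, values under 3.47 were raised to it before the difference was taken. By that measure 4 were at least 2-fold higher than control on the HIF-2a-labelled array and 0 were lower. Of all 17097 genes 3.96% were higher and 0.269% lower, but 9543 of them were equal on the 2 arrays by this measure. Among genes that reached 16 on an array 2 of 22 targets were 2-fold higher, beside 5.52% of all such genes. With so few genes that is near the background. The 4 genes of the first count are named because they make it up and after their values were seen. Perp, a desmosome gene that p53 induces in apoptosis, was at least 5.17-fold higher at 17.9, and the death receptor gene Tnfrsf10b at least 2.57-fold at 8.94. Pmaip1, which encodes the BH3-only protein NOXA, read 10.9, 7.98 and 27.9 in array order and was 2.57-fold higher. Ppm1d, which encodes a phosphatase that shuts the p53 response off, was 2.22-fold higher at 13.7. On the HIF-1a-labelled array 0 of 32 passed 2-fold in either direction, beside 2.1% of all genes higher and 0.0292% lower.

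The list of p53 regulators and relatives held 15 genes, with 12 on the array and 5 measured, and none of the 5 differed 2-fold from control. Hipk2, a kinase that phosphorylates p53 after severe damage, read 73.3 on the control array, 110.4 on the HIF-1a-labelled array and 62.3 on the HIF-2a-labelled array. Its differences from control were 0.59 and −0.23, so the HIF-1a-labelled and HIF-2a-labelled arrays stood on opposite sides of control. Trp53bp1, a DNA damage mediator, differed by 0.16 and 0.33, though its second probe set read 29.6 on every array. Usp7, which removes ubiquitin from MDM2 and p53, differed by −0.04 and −0.03. Rpl11, a ribosomal protein that can bind MDM2, read 721.3 on every array, and Npm1, a nucleolar chaperone that binds ARF, 448.2, 448.2 and 472.3. Of the 12 genes, with values under 3.47 raised to it, 3 were at least 2-fold higher than control on the HIF-2a-labelled array, beside 3.96% of all genes, and all 3 were dim. They were the MDM2 relative Mdm4 (7.69, 19.7 and 18.4 in array order), the damage kinase gene Atr (4.11, 7.61 and 9.94) and the checkpoint kinase gene Chek2 (5.76, 6.62 and 11.7). Among genes that reached 16 on an array only Mdm4 passed 2-fold on the HIF-2a-labelled array, 1 of 6, beside 5.52% of all such genes. Mdm4 was also past 2-fold on the HIF-1a-labelled array, where it was 2.56-fold higher than control.

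Cyclins, CDKs and genes of the retinoblastoma-E2F switch made a list of 25 genes, with 24 on the array and 5 measured. Myc, a growth-promoting transcription factor, read 55.2, 67.7 and 78.9 in array order, differences from control of 0.29 and 0.51. It was under the minimum on the control array, so it counts as measured only through the HIF-1a-labelled and HIF-2a-labelled arrays. Cks1b, a CDK-binding subunit needed to degrade p27, read 174.7, 179.5 and 215.3, differences from control of 0.04 and 0.30. Its other probe set read 59.1, 78.4 and 99.4, differences of 0.41 and 0.75. Cdk4, the kinase that cyclin D1 drives, read 97.7, 89.1 and 92.9. The cyclin D2 gene Ccnd2 read 386.7, 369.4 and 384.7, and Ccng2, a relative of Ccng1, 127.4 on every array. A dimmer Ccnd2 probe set read 63.4, 79.9 and 59.0, while its remaining ones differed from control by 0.04 at most. The dimmer Ccng2 probe set read 14.2, 17.6 and 17.2. With values under 3.47 raised to it, the median over all 24 genes was 0.07 on the HIF-1a-labelled array and 0.29 on the HIF-2a-labelled array. It was 0.00 for all genes on each, where most genes were equal to control. The median of the 24 came to 0.003 and 0.13 after cyclic loess, and to 0.03 and 0.10 with 32 added. Among genes that reached 16 on an array the medians were 0.07 and 0.31 for 14 of the list and 0.07 and 0.10 for all such genes, and the 5 measured genes had a median of 0 in both comparisons. In both comparisons 3 of the 24 were at least 2-fold higher, beside 2.1% of all genes on the HIF-1a-labelled array and 3.96% on the HIF-2a-labelled array. They were Ccna2, the cyclin of S phase, at 6.21, 15.0 and 36.4, Skp2, the ligase subunit that removes p27, at 4.30, 10.3 and 11.9, and Rbl1, a relative of the retinoblastoma gene, at 1.35, 7.45 and 13.8. Among genes that reached 16 only Ccna2 passed 2-fold, 1 of 14 in each comparison, beside 2.74% and 5.52% of all such genes.

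Genes of DNA replication and mitosis were higher on the HIF-2a-labelled array, alongside the higher Mdm2 and Ccnd1 and the lower Cdkn2a and Cdkn2b. Of 19 proliferation genes on the array, with values under 3.47 raised to it, 18 were above control on the HIF-2a-labelled array and 1 was equal. The median difference was 1.01, and 10 of the 19 were at least 2-fold higher, beside 3.96% of all genes. Among genes that reached 16 on an array 8 of 13 were, beside 5.52% of all such genes. On the HIF-1a-labelled array 13 were above control, 3 below and 3 equal, with a median of 0.09 and 3 at least 2-fold higher, beside 2.1% of all genes. Between the HIF-2a-labelled and HIF-1a-labelled arrays 9 of the 19 were at least 2-fold higher, beside 0.614% of all genes, with a median of 0.81.

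The 3 measured proliferation genes differed less than 2-fold from control, so all 10 that passed 2-fold on the HIF-2a-labelled array were under the minimum. Pcna, the sliding clamp of DNA replication, read 227.8, 223.6 and 321.4 in array order. Cdk1, the kinase that drives mitosis, read 38.0, 38.5 and 67.4, and Rrm2, a subunit of ribonucleotide reductase, 179.0, 164.7 and 189.0. All were highest on the HIF-2a-labelled array, by 0.50, 0.83 and 0.08 over control. Cdk1 reached 64 on the HIF-2a-labelled array alone, so it counts as measured only through its high value there. The other Rrm2 probe set read 97.7, 96.5 and 129.1, a difference from control of 0.40 on the HIF-2a-labelled array. The other 16 genes stayed under 64 on every array, and their folds rest on dim values.

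Most interferon-induced genes were also higher on the HIF-1a-labelled and HIF-2a-labelled arrays than on the control array, whose cells had a control shRNA. Of 17 such genes on the array 13 were at least 2-fold above control on the HIF-1a-labelled array and 14 on the HIF-2a-labelled array, beside 2.1% and 3.96% of all genes, with medians of 2.18 and 2.99 when values under 3.47 were raised to it. Whether the differences of Mdm2, Ccnd1, Cdkn2a and Cdkn2b move with that response in other cultures was not tested.

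**Figure D4:**
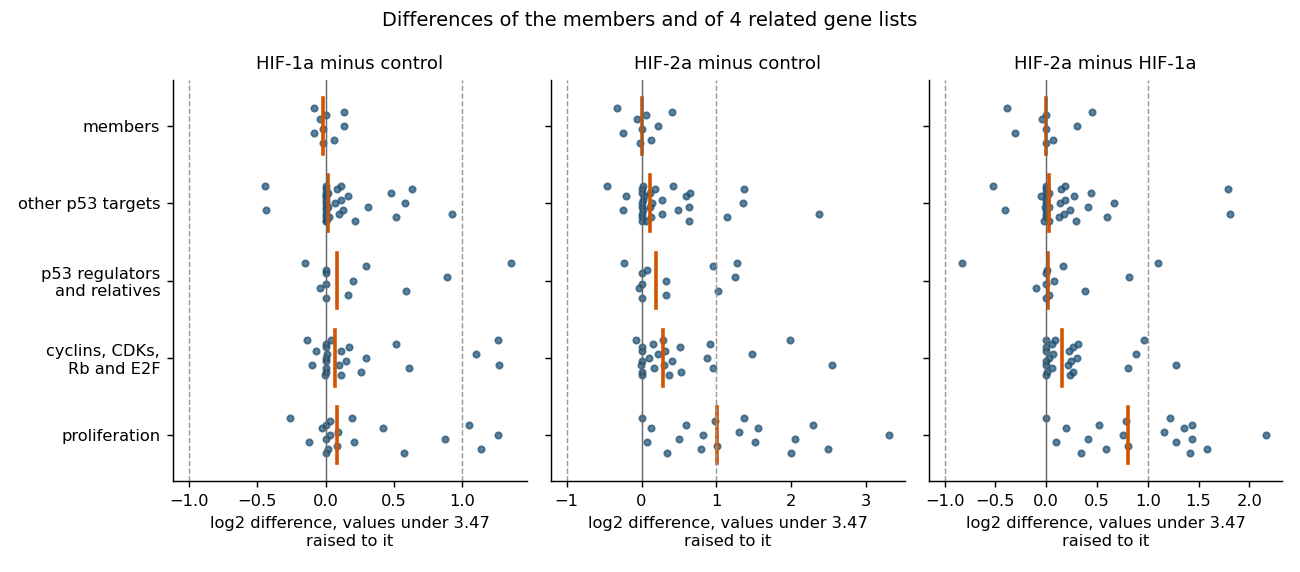
Log2 differences, with values under 3.47 raised to it, of 9 members, 32 other p53 targets, 12 p53 regulators, 24 cyclins, CDKs and Rb-E2F genes and 19 proliferation genes, 1 point for each gene and an orange bar at the median. Dashed lines mark 2-fold, and each panel has its own horizontal scale. The proliferation genes lie to the right in the middle and right panels, with medians of 1.01 and 0.81, while the members keep within 2-fold in all panels.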

How the data were processed

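RNA from 3 samples was measured on single-colour Affymetrix arrays, with biotin-labelled cRNA made from 1 µg RNA, per the labels' protocols. The authors deposited 1 table of RMA intensities on a linear scale, as its values show; per the submitters' processing notes the tool was RMA, whose version and settings these sources do not give. In its usual form RMA makes arrays alike in distribution. The deposited values were not fully alike, with an upper quartile over all probe sets of 9.8, 13 and 13.9 in array order. Among genes that reached 16 on an array, 3858 were above and 1115 below control on the HIF-1a-labelled array. On the HIF-2a-labelled array 3897 were above and 1381 below. Counts of dim genes above control are to be read beside that shift. Median polish over few arrays can give equal values. Among probe sets that reached 64 on at least 1 array, 22.7%, 17% and 23.1% were equal in the 3 comparisons, within a relative tolerance of 1e-09. Small differences may thus be unrecorded.

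Groups came from the sample titles. Log2 was taken with no pseudocount and no further scaling. The platform table gave 1 gene for 28898 probe sets, several for 551 and did not list 15588, which are unnamed here; 28689 were matched by Entrez identifier to RefSeq, assembly GRCm38.p6. Of several probe sets for a gene, the one brightest on average stood for it. No test was run and no p-value is given, because each group has 1 array. All members are named; from each related list the measured genes with the 3 highest and 3 lowest differences from control are named, and all measured proliferation genes. Genes outside this rule are named where they make up a small count. Members and lists were chosen with earlier results of these data known; the SD yardstick and the abutting p53 decamers were added after the values and sequences were seen. The 2-fold call among measured genes was checked on simulated data with known changes well past 2-fold and little noise. That check does not cover the SD counts or the counts among dim genes. Python 3.11.15, pandas 2.3.3, numpy 2.4.6, limma 3.58.1 and matplotlib 3.10.9 were used.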

Additional observations from a re-analysis of the deposited data

How the results depend on the processing

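No paired analysis was possible because each group has 1 array. The choice of probe set changed the 2-fold count once: with probe sets of suffix _s_at, _x_at or _a_at left out, Ccng1 was represented by 1450016_PM_at, and 1 of the 6 measured members was 2-fold apart between the HIF-2a-labelled and control arrays, at 1.21, in place of 0. The same choice took the median over members between the HIF-2a-labelled and HIF-1a-labelled arrays from 0.01 to 0.18, and the mean of all probe sets took it to 0.19. The count past the probe-set SD between the HIF-1a-labelled and control arrays was 1, Cdkn2b, as deposited. It was 0 with 32 added or after cyclic loess and 2 under each other setting, and after centring Cdkn2b itself was not among them. The counts of 4 on the HIF-2a-labelled array lay between 3 and 5 against control, without Ccnd1 at the lower count, and between 4 and 5 against the HIF-1a-labelled array. The other 2-fold counts and medians over members, under those settings, cyclic loess, centring on the measured genes, 32 added before log2, a minimum of 16 and no minimum, stayed within the probe-set SD or at 0. Of 135 differences of single members under the alternatives 125 moved by less than the probe-set SD and 10 by more, all of them of Ccng1, Cdkn1b or Cdkn1c. Signs turned in 15, and Mdm2, Ccnd1, Cdkn2a and Cdkn2b kept theirs against control on the HIF-2a-labelled array in every setting run, although Ccnd1 came to 0.16 after centring and 0.20 with 32 added, under the SD of 0.21. Over all measured genes, 46 were 2-fold higher and 23 lower than control on the HIF-2a-labelled array. That split was 39 and 31 after cyclic loess, 26 and 10 with 32 added, 344 and 41 at a minimum of 16, and 903 and 135 with none. After cyclic loess 18 of 19 proliferation genes were above control on the HIF-2a-labelled array, with a median of 1.21. With the deposited values and no low value raised, the median of these 19 genes was 1.37. With 32 added it came to 0.42, with all 19 still above control. It was 1.31 after centring, 1.04 for the mean of all probe sets and 1.31 with the suffixed probe sets left out. The size of this shift therefore depended on how dim values were treated. Having 1 array a group limits the precision of all members, and for Cdkn1c and the dim list genes the signal is also near background.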
